A study of Mus musculus with 26 samples.

Results

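A group of 5 genes of fast skeletal muscle, Acta1, Tnnc2, Tnnt3, Pvalb and Atp2a1, was followed in both sexes of mice across 5 glands of the head: 3 salivary glands (submandibular, sublingual, parotid), the lacrimal gland and the meibomian gland of the eyelid. They were taken by gene symbol from the annotation of the array, where each had 1 probe, so the group comprised 5 of 10500 probes. All 5 probes entered the comparisons, as did 8227 of the probes in all. The mice were of the BALB/c strain, with no transgene, mutation or treatment named, and their age was not given. Each array carried RNA pooled from 10 glands of 5 animals. There were 3 pools of females and 3 of males for the submandibular, lacrimal and meibomian glands, and 2 of each sex for the sublingual and parotid glands, which made 26 arrays. A pool averages its 5 animals, so the spread and the p-values reported here measure pools and not single mice.

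Skeletal muscle shortens when calcium released from the sarcoplasmic reticulum binds troponin on the thin filament, which frees actin for myosin. Fast fibres carry their own forms of these proteins and clear calcium quickly after each contraction. Acta1 encodes skeletal alpha-actin, the core of the thin filament. Tnnc2 encodes fast troponin C, the subunit that binds calcium, and Tnnt3 encodes fast troponin T, which anchors the troponin complex to tropomyosin. Pvalb encodes parvalbumin, a soluble calcium buffer of fast fibres that is also made by some neurons. Atp2a1 encodes SERCA1, the pump that returns calcium to the reticulum in fast fibres. Salivary and lacrimal secretory epithelium is not built of such fibres, and the contractile cells of its acini, the myoepithelial cells, use smooth muscle actin. How the glands were freed of neighbouring tissue was not stated, and whether muscle was collected with them was not tested.

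The 5 genes moved together across the arrays, and the sequences just before their RefSeq start sites (assembly GRCm38.p6) were read to show what letters they hold. RefSeq promoter entries matched 4 of the 5 genes: Acta1, Tnnc2, Atp2a1 and, with 2 starts, Pvalb. The window ran over the 250 bases before each start, and motifs were searched on both strands. Acta1 (chr8:123894776-123895025, minus strand) and the first start of Pvalb (chr15:78206401-78206650, minus strand) are shown because each held a match to a motif known from muscle promoters, written in capitals. In Acta1 the capitals are a CArG box, the site of serum response factor, which began 73 bases before the start. In Pvalb they are a MEF2 site.
Acta1: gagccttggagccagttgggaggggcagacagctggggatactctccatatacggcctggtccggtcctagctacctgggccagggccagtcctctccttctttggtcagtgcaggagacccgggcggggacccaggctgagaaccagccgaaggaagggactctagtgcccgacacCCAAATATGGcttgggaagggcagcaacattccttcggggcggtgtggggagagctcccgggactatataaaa
Pvalb: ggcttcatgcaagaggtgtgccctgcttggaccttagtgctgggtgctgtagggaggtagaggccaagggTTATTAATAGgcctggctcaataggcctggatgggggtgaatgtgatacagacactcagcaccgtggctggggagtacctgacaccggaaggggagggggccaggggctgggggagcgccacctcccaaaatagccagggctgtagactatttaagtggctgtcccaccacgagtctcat
A CArG box was present in 1.47% and a MEF2 site in 2.92% of 32851 promoter windows of the same length. The E-box CANNTG, to which myogenic regulators such as MyoD can bind, was present 2 times in Acta1, 2 times in Tnnc2, 1 time in Atp2a1 and 1 time at the second start of Pvalb, against 66.2% of all windows with at least 1. The M-CAT motif CATTCC and the motif TATAAA each matched 1 time in Acta1 and not in the other windows, against 12.6% and 12.4% of all windows. None of the capitals overlapped another of these matches.

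Values are linear intensities as deposited, scaled so that the median probe of each array lay between 0.928 and 0.955. The gland labels were checked against marker lists. The 3 meibomian markers on the array summed to 204 to 309 in meibomian pools and to at most 52.4 elsewhere, and the 2 lacrimal markers summed to 513 to 835 in lacrimal pools and to at most 5.78 elsewhere. The 4 submandibular markers were all higher in that gland than in the mean of the others. The 2 of them that could be summed came to 364 to 520 there, but also to 139 to 367 in parotid and 196 to 332 in sublingual pools. The submandibular label was thus checked by the mean only. The 2 parotid markers summed to 306 to 1060 in parotid pools but also to 316 to 845 in the other salivary and the lacrimal glands, and no sublingual marker was on the array, so those labels were not checked in this way. The Y-linked gene Eif2s3y separated the 13 male from the 13 female arrays. The arrays fell into 2 sets along the first component of their deviations from the group means, which held 38.1% of that variance: 10 arrays, 1 of each group, formed set 1 and the other 16 formed set 2. The labels do not name these sets, and they are used here only as a technical split. The table gives no detection call, so a probe under the 30th percentile of its array is treated here as not told from background.

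Among the thin filament genes, Acta1 had its highest intensities in parotid and meibomian pools. It read 8.87 and 27.7 in the female parotid pools A and B, and 36.5 and 25.6 in the male ones. The meibomian pools A, B and C read 23.2, 19.4 and 15.5 in females and 27.1, 18.2 and 18.4 in males. These 10 pools did not overlap with any other, since the highest value elsewhere was 3.41 in a male submandibular pool. In the sublingual gland Acta1 read 0.071 and 0.393 in females and 0.160 and 0.169 in males. The lacrimal gland read 0.00448, 0.151 and 0.370 in females and 0.172, 0.385 and 0.524 in males, and 5 of its 6 pools lay under the 30th percentile of their arrays.

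Tnnc2, the calcium-binding troponin, followed the same order. It read 15.2 and 77.9 in the female parotid pools and 69.0 in male pool B, while the spot of male pool A was missing. The meibomian pools read 99.7, 81.5 and 69.6 in females and 78.1, 73.9 and 74.0 in males. In meibomian pools 98.0% to 98.8% of the probes of the array lay below Tnnc2. The sublingual pools read 0.0569 and 0.713 in females and 0.220 and 0.176 in males. The lacrimal pools read 0.0458, 0.0706 and 0.247 in females and 0.129, 0.191 and 0.635 in males, so no sublingual or lacrimal pool came near those of the parotid.

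Tnnt3, the troponin subunit that binds tropomyosin, was the gene for which the parotid and meibomian pools did not overlap. It read 3.58 and 12.3 in female and 14.1 and 13.6 in male parotid pools. The meibomian pools read 44.1, 26.7 and 25.7 in females and 30.6, 23.4 and 24.5 in males. The sublingual pools read 0.0946, 0.272, 0.143 and 0.179, females first, and all 4 lay under the 30th percentile. The lacrimal pools lay between 0.0249 and 0.624, with 5 of 6 under that percentile.

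For the calcium-handling genes the pattern was alike. Pvalb, the calcium buffer, read 6.70 and 27.4 in female and 31.9 and 26.2 in male parotid pools. The meibomian pools read 39.0, 32.6 and 24.5 in females and 38.0, 27.6 and 30.6 in males. All 4 sublingual pools (0.0176 to 0.294) and all 6 lacrimal pools (0.126 to 0.343) of Pvalb lay under the 30th percentile of their arrays. Atp2a1, the calcium pump, read 14.9 and 113 in female and 74.1 and 131 in male parotid pools. The meibomian pools of Atp2a1 read 112, 57.6 and 52.5 in females and 81.2, 53.1 and 58.5 in males. Outside the parotid, meibomian and male submandibular glands Atp2a1 was still above the 30th percentile in most pools: the sublingual pools read 0.149 and 1.68 in females and 0.592 and 0.822 in males, and the lacrimal pools lay between 0.312 and 0.616.

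**Figure D1:**
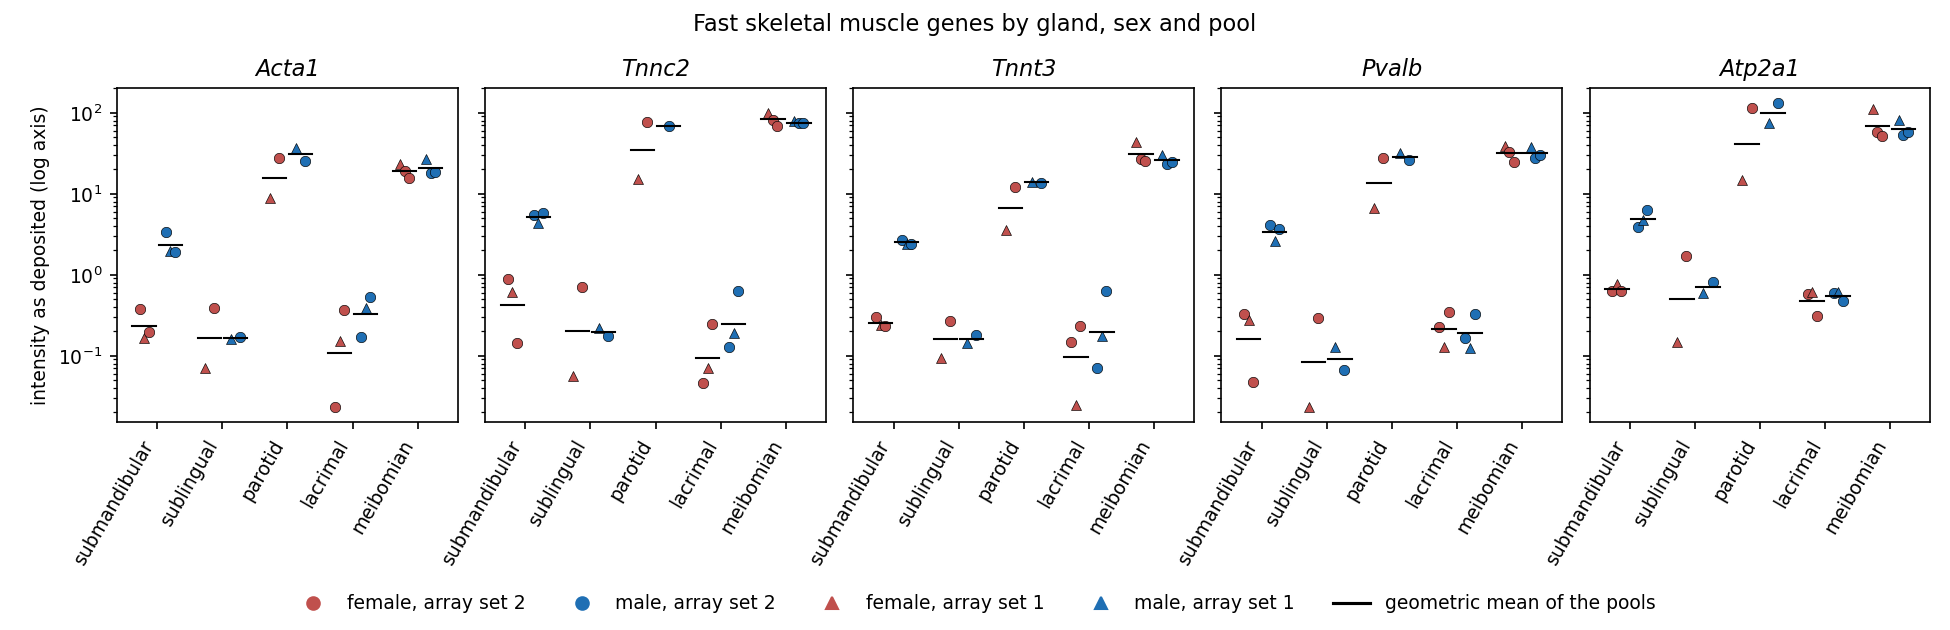
Intensity as deposited (log axis) of each gene in each pool, by gland and sex; bars are geometric means of the pools of a group, triangles and circles mark array sets 1 and 2, and values below the floor of 0.0234 stand at it. Parotid and meibomian pools lie highest for all 5 genes, male submandibular pools lie between, and for Acta1 1 female parotid pool (8.87) lies below the other 3 (25.6 to 36.5).

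The question of which gland carried the transcripts was put as each gland against the mean of the other 4, with both sexes weighted equally. All 5 genes were higher in the meibomian gland, where 16.9% of all probes were called higher, and the differences ran from 4.57 ± 0.42 for Acta1 to 6.02 ± 0.49 for Tnnc2 on the log2 scale (log2 difference ± standard error). Tnnt3 and Pvalb both stood 5.47 above the other glands there, and Atp2a1 4.77 ± 0.38. All 5 were also higher in the parotid gland, against 8.96% of all probes, from 3.51 ± 0.47 for Tnnt3 to 5.15 ± 0.67 for Tnnc2. Acta1 (4.73), Pvalb (4.62) and Atp2a1 (4.69) lay between. The adjusted p-values (limma moderated test, Benjamini-Hochberg) of these 10 differences were at most 5.49e-06. The fit took each array as separate, with no term for the pool letter. Same-letter pools of the sexes deviated together, so these p-values may be too small. The missing parotid spot of Tnnc2 was left out of its fit, and with that spot set to the floor instead the parotid difference of Tnnc2 was 2.27 and no longer passed (adjusted p = 0.149). As the samples are whole tissue, more cells that express a gene and more of its RNA per cell cannot be told apart.

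The sublingual and lacrimal glands lay at the other end. All 5 genes were lower in the sublingual gland than in the mean of the others (-3.74 for Atp2a1 to -5.16 for Pvalb), as were 5.23% of all probes. All 5 were lower in the lacrimal gland (-3.64 for Pvalb to -5.25 for Tnnc2), as were 8.56% of all probes. In the submandibular gland, where 6.6% of all probes were called lower, 3 of the 5 genes passed the test: Acta1 (-1.38 ± 0.42), Pvalb (-1.30 ± 0.43) and Atp2a1 (-1.72 ± 0.38). Tnnc2 (-1.14 ± 0.49, limma adjusted p = 0.0882) and Tnnt3 (-0.97 ± 0.40, adjusted p = 0.0778) did not. Without female parotid pool A all 5 passed, while without female submandibular pool B Acta1 was lost, and without female C, male B or male C Pvalb was lost. The moderated F test over the 5 glands called all 5 genes, and with them 80.5% of all probes.

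The glands were then set pair by pair. Between the parotid and meibomian glands only Tnnt3 passed the test: the parotid minus meibomian difference was -1.57 ± 0.56 (limma adjusted p = 0.0202), in a comparison that called 28.2% of all probes higher and 30% lower in the parotid. This call was lost without female parotid pool A (-1.13, limma adjusted p = 0.131), without male parotid pool B (adjusted p = 0.05) and on array set 2 alone (-0.96, adjusted p = 0.253). For the other genes the differences were 0.13 for Acta1 (95% interval -1.08 to 1.35), -0.69 for Tnnc2 (-2.28 to 0.89), -0.68 for Pvalb (-1.92 to 0.57) and -0.06 for Atp2a1 (-1.16 to 1.04). Intervals of this width hold differences past 1 log2 unit, so these levels were not shown to be equal. Atp2a1 turned with the array set: on set 2 alone it was higher in the parotid (1.14 ± 0.29, limma adjusted p = 0.00886), and on set 1 its difference was -1.52.

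The place of the submandibular gland was read as a mean of both sexes and then in each sex. A call in 1 sex alone does not show that the sexes differ, and the direct test is given further below. As a mean of both sexes, all 5 genes were lower there than in the parotid and in the meibomian gland, where 12.4% and 27.5% of all probes were called lower. All 5 were higher there than in the sublingual and lacrimal glands, as were 7.68% and 15% of all probes. Taken sex by sex, an alternative added after the values were seen, that second difference was found in males: all 5 genes were higher in male submandibular than in male sublingual pools (5.32% of all probes) and male lacrimal pools (11% of all probes), from 2.80 ± 0.75 for Atp2a1 against the sublingual gland to 5.20 ± 0.84 for Pvalb. In females none of the 5 was called higher in the submandibular than in the sublingual gland (1.36% of all probes; 0 genes at an unadjusted p under 0.05) or the lacrimal gland (8.59%; 1 gene, Tnnc2, 2.20 ± 0.84, limma adjusted p = 0.0733). The female geometric means in the submandibular, sublingual and lacrimal glands were 0.232, 0.167 and 0.109 for Acta1 and 0.675, 0.501 and 0.481 for Atp2a1. For Pvalb they were 0.162, 0.0829 and 0.217 and for Tnnt3 0.254, 0.160 and 0.0955, with every one of these female pools under the 30th percentile. The intervals in females were wide (-1.25 to 2.19 for Acta1 against the sublingual gland), so equal levels were not shown either. In the mean of both sexes the submandibular minus sublingual difference was smallest for Atp2a1 (1.62 ± 0.53, limma adjusted p = 0.0418), and this call held in 14 of the 26 fits that each left out 1 array. Acta1 was lost without female sublingual pool A (1.54, adjusted p = 0.122), and on array set 2 alone Pvalb was the only one of the 5 that passed. The sublingual and lacrimal glands in turn were below the parotid for all 5 genes (10.9% and 16.2% of all probes) and below the meibomian gland for all 5 (25.8% and 26.3%). Against the 30th percentile of the sublingual arrays, the meibomian mean was 85.2-fold higher for Tnnt3 and 94.8-fold for Pvalb. That percentile was used since every sublingual pool lay under it for both genes. These ratios of means leave out the spread between pools. Between the sublingual and lacrimal glands none of the 5 passed, in a comparison that called 38.1% of all probes; at an unadjusted p under 0.05 the count was also 0.

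Between the sexes, the 5 genes were called in 1 gland. In the submandibular gland all 5 were higher in males, where 1.91% of all probes were called higher and 0.669% lower. Acta1 read 0.373, 0.168 and 0.199 in the female pools A, B and C and 3.41, 1.98 and 1.93 in the male pools. Tnnc2 read 0.881, 0.609 and 0.144 in females and 5.52, 4.42 and 5.77 in males. Tnnt3 read 0.30, 0.237 and 0.231 in females and 2.72, 2.41 and 2.43 in males. For each of these troponin and actin genes every male pool lay above every female pool. Pvalb read 0.33, 0.274 and 0.0471 in females and 4.09, 2.63 and 3.64 in males. Atp2a1 read 0.636, 0.774 and 0.624 in females and 3.83, 4.73 and 6.35 in males. The separation of all male from all female pools in that direction was shared by 8.19% of all probes.

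The male minus female differences in the submandibular gland (n = 3 and 3 pools) were 3.35 ± 0.74 for Acta1 (limma adjusted p = 0.0123), 3.61 ± 0.84 for Tnnc2 (adjusted p = 0.0197) and 3.31 ± 0.70 for Tnnt3 (adjusted p = 0.00924). For Pvalb the difference was 4.39 ± 0.75 (limma adjusted p = 0.00122) and for Atp2a1 2.85 ± 0.67 (adjusted p = 0.0193). In linear terms Atp2a1 was 7.21-fold higher in males. The fitted ratios of Acta1 (10.2-fold) and Tnnc2 (12.2-fold) rest in part on dim readings, since 2 of 3 female pools of Acta1 and 1 of 3 of Tnnc2 lay under the 30th percentile. Against the 30th percentile of the female arrays, the male mean was 10.1-fold higher for Pvalb and 7.49-fold for Tnnt3. That percentile was used since both genes lay under it in all 3 female pools. These ratios of means leave out the spread between pools. The 95% intervals of the fitted ratios began at 7.04-fold for Pvalb and 3.59-fold for Tnnt3. Even so, the male submandibular levels (geometric means 2.35 for Acta1, 5.20 for Tnnc2, 2.52 for Tnnt3, 3.40 for Pvalb and 4.86 for Atp2a1) stayed below every parotid and meibomian pool of the same gene.

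Tnnt3 and Pvalb passed in all 26 fits that each left out 1 array. The count of genes called fell to 2 without female pool C, and to 3 without female pool B or male pool A, B or C. With the missing parotid spot of Tnnc2 set to the floor, its spread grew and its call was lost (adjusted p = 0.525). On array set 2 alone, with 2 pools per sex, only Pvalb and Atp2a1 passed. Within set 1, with 1 pool per sex and so no test, the differences were 3.56, 2.86, 3.34, 3.26 and 2.61 for Acta1, Tnnc2, Tnnt3, Pvalb and Atp2a1, and within set 2 they were 3.24, 3.98, 3.29, 4.95 and 2.97.

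In the sublingual, parotid, lacrimal and meibomian glands none of the 5 genes was called between the sexes, against 0.207%, 0.0243%, 5.37% and 0.0365% of all probes. At an unadjusted p under 0.05 the counts were 0, 0, 1 (Acta1, 1.58 ± 0.74 in the lacrimal gland) and 0. In the meibomian gland the differences lay between -0.26 for Tnnt3 and 0.13 for Acta1, with a 95% interval of -1.41 to 1.67 for Acta1 and of -1.73 to 1.20 for Tnnt3. In the parotid gland all 5 differences were positive, from 0.96 ± 0.90 for Acta1 to 1.26 ± 0.82 for Atp2a1, with the male values of Tnnt3 above both female ones, as for 9.85% of all probes. Averaged over the 5 glands the differences were 0.93 to 1.20, none was called (1.26% of all probes were), and all 5 had an unadjusted p under 0.05. With the pool letter as a replicate block 1 gene, Acta1, passed (1.20, limma adjusted p = 0.0192), and without female sublingual pool B, female parotid pool B or female lacrimal pool C the count was 2, 1 and 1.

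**Figure D2:**
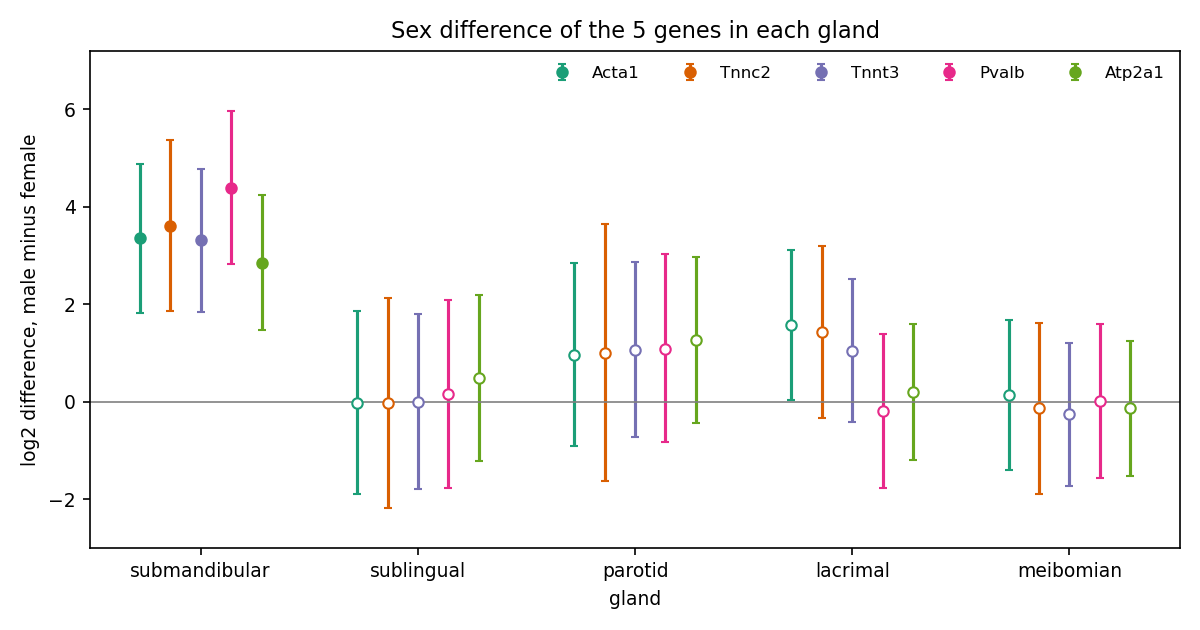
Log2 difference, male minus female, of each gene in each gland, with its 95% interval; filled points had an adjusted p under 0.05 and open points did not. The 5 submandibular differences lie between 2.85 and 4.39, and the parotid ones between 0.96 and 1.26 with intervals that cross 0.

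The difference between glands in the sex effect was tested directly. The moderated F test of sex by gland called none of the 5 genes (2.65% of all probes), with limma adjusted p-values from 0.0664 for Pvalb to 0.521 for Tnnc2, while all 5 had an unadjusted p under 0.05. The count was 2 without female sublingual pool A, and 1 without female sublingual pool B or without either female parotid pool. Against the lacrimal gland alone, the submandibular sex difference of Pvalb was larger by 4.58 ± 1.07 (limma adjusted p = 0.0158), the only such call among the 5 genes, beside 1.67% of all probes. No gene was called against the sublingual (0.0122% of all probes), parotid (0.34%) or meibomian gland (0.523%), although the estimates were all positive, from 1.58 ± 1.05 for Atp2a1 against the parotid to 4.38 ± 1.07 for Pvalb against the meibomian gland. Apart from the call of Pvalb against the lacrimal gland, a larger sex difference in the submandibular gland was not established. That call is limited, since Pvalb lay under the 30th percentile in every female submandibular and every lacrimal pool. A sex difference in the lacrimal gland could not be read from such values, and with array weights the limma adjusted p was 0.0661.

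The parotid values turned on 1 pool. Female pool A was the lowest of the parotid pools for all 5 genes. The geometric mean of the remaining pools was 3.33 times that of female A for Acta1, 4.81 times for Tnnc2, 3.71 times for Tnnt3, 4.24 times for Pvalb and 6.94 times for Atp2a1. Female pool B read within the range of the male pools or next to it: the male minus female difference within array set 2 lay between -0.17 for Tnnc2 and 0.21 for Atp2a1. Within set 1, which holds female pool A, it lay between 1.97 for Tnnt3 and 2.32 for Atp2a1. The other fast fibre probes were also lowest in this pool as a sum: the 6 fast fibre contraction probes besides these genes summed to 18.0 in female A and to 58.3, 57.2 and 64.3 in female B, male A and male B. The 5 adipocyte markers summed to 130, 388, 174 and 170, and the 2 parotid markers to 374, 973, 306 and 1060. Their part in the low reading of female A was not tested.

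Meibomian pools varied far less. The standard deviation of the 6 pools on the log2 scale was 0.28 for Acta1, 0.18 for Tnnc2, 0.34 for Tnnt3, 0.26 for Pvalb and 0.43 for Atp2a1, against 0.90, 1.31, 0.95, 1.05 and 1.44 over the parotid pools. The female and male pools A, which belong to array set 1, were the 2 highest for Acta1, Tnnt3, Pvalb and Atp2a1, and female pool C was the lowest for all but Tnnt3. In the sublingual gland female pool A was the lowest and female pool B the highest for all 5 genes, with both male pools between. The readings of the female sublingual pools thus differed more from each other than from the males, and the fitted sex differences of 0.48 or less there stand for pools that disagreed. Most of these readings were not told from background. Under the 30th percentile lay all 4 sublingual pools for Tnnt3 and Pvalb, 3 of 4 for Acta1 and Tnnc2, and 1 of 4 for Atp2a1.

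How far the 5 genes kept a fixed proportion to each other was examined in the parotid and meibomian pools, where all lay well above the 30th percentile. A ratio between probes has no meaning of its own, as probes differ in brightness. A shift of the ratio between glands is free of this only where each probe responds alike on every array, which was not tested. Within the parotid, Acta1 over Atp2a1 read -0.75 and -1.02 on array set 1 and -2.03 and -2.36 on array set 2. This comparison was chosen after the values were seen and covered 10 pairs of genes. Same-letter pools of the sexes deviated together, so the exact 2-sided permutation test kept them as 1 unit, which left 2 parotid against 3 meibomian units. The shifts given are differences between means of pools. Those between means of units, which the test used, differed only for pairs with Tnnc2, where a spot was missing. Acta1 over Tnnt3 was higher in the parotid by 1.70 on the log2 scale, with parotid pools at 0.91 to 1.38 and meibomian pools at -0.93 to -0.17. Tnnc2 over Tnnt3 was higher by 0.90 over pools and 0.83 over units, with parotid pools at 2.09 to 2.67 and meibomian pools at 1.18 to 1.66. Tnnt3 over Pvalb shifted by -0.90 and Tnnt3 over Atp2a1 by -1.51. In these 4 pairs the pools of the glands did not overlap, with Tnnt3 the relatively lower gene in the parotid. Tnnt3 was also the gene whose own parotid and meibomian pools did not overlap, and all 4 pairs share it. The share of other probe pairs without overlap was not computed, so this is not read as particular to Tnnt3.

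With 10 splits the smallest exact permutation p is 0.1, so no pair could pass 0.05, and the shifts are given as values. The exact p was at this minimum for all 4 pairs with Tnnt3. The shift kept its sign within both array sets for all 4 pairs. Acta1 was higher in the parotid relative to Tnnc2 by 0.75 over pools and 0.86 over units. Relative to Pvalb it was higher by 0.81. Both pairs were also without overlap and with 1 sign in both sets. The ratio of Tnnc2 to Pvalb shifted by 0.04 over pools, less than its standard deviation of 0.16 over the pools of either gland. The ratios of Atp2a1 to Acta1, Tnnc2 and Pvalb shifted with opposite signs in the 2 sets. In all, 6 of 10 pairs did not overlap between the glands, but the share over other pairs of probes was not computed. Between these glands 28.2% of all probes were called higher and 30% lower in the parotid. The 4 pairs with Tnnt3 also share that gene, so the count is not read as a result about these genes.

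**Figure D3:**
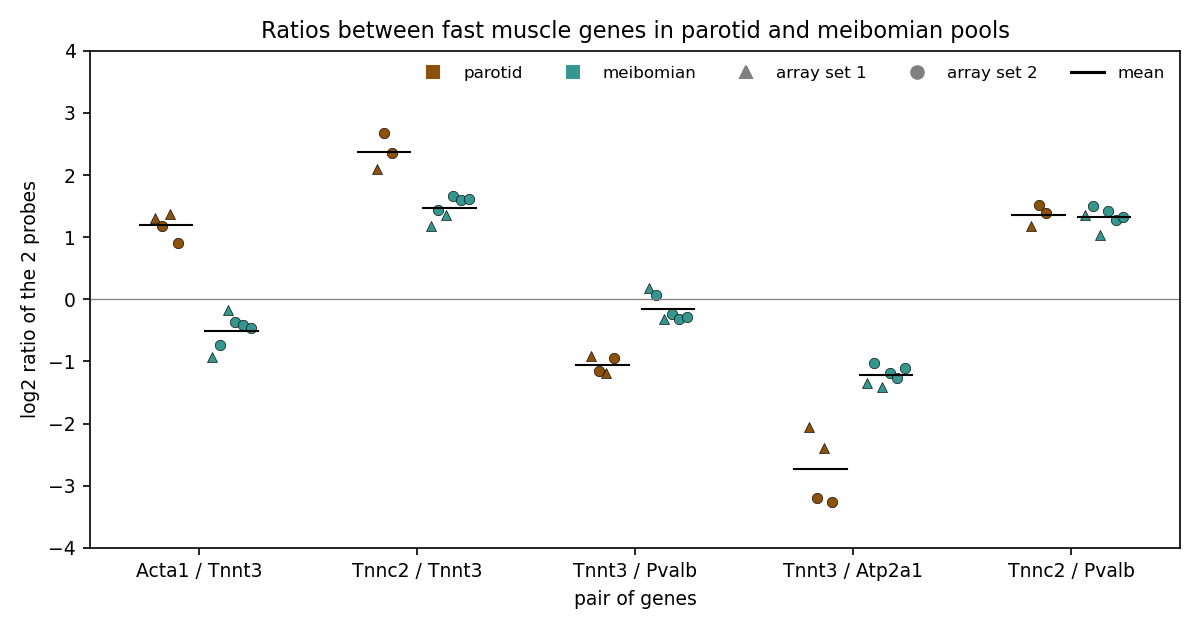
Log2 ratio of the intensities of pairs of probes in each parotid and meibomian pool (bars: means; triangles and circles: array sets 1 and 2). In the 4 pairs with Tnnt3 the pools of the glands do not overlap, as in Acta1 over Tnnt3 (0.91 to 1.38 against -0.93 to -0.17), while Tnnc2 over Pvalb overlaps. The share of other probe pairs without overlap was not computed.

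Other skeletal muscle genes were read from 7 lists of 102 genes, of which 79 were on the array and 58 passed the filter, 53 of them besides the 5 genes above. A gene could pass through the 1 group where it was high, and genes that did not pass are not counted. The counts below thus describe the genes kept and do not test skeletal muscle genes as a whole. The shares of all probes come from probes that passed the same filter. In the meibomian gland 39 of the 58 were called higher and 5 lower than in the other glands (median 1.92, against -0.09 for all probes and 16.9% and 21% of all probes called). Beside the 5 genes, the highest there were Mylpf, the regulatory light chain of fast myosin (4.70 ± 0.23), the muscle phosphoglycerate mutase Pgam2 (4.51 ± 0.30), the fast myosin heavy chain Myh2 (4.05 ± 0.41) and the mitochondrial creatine kinase Ckmt2 (3.90 ± 0.29). In the parotid gland 30 were higher and 1 lower (median 1.30, against -0.13 for all probes and 8.96% and 8.11% called), among them the muscle creatine kinase Ckm (3.66 ± 0.34), Mylpf (3.59 ± 0.27), Ckmt2 (3.51 ± 0.33) and the myosin light chain Myl1 (3.15 ± 0.29). All 9 fast fibre contraction genes kept were higher in both glands. Of the 5 slow fibre genes kept, 2 were higher in the meibomian gland and none in the parotid.

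The sublingual gland had 30 of the 58 lower and 4 higher (5.23% and 5.86% of all probes), and the lacrimal gland 29 lower and 2 higher (8.56% and 11.7%). Pgam2 (-4.21 ± 0.35) and Mstn, the muscle growth inhibitor myostatin (-3.84 ± 0.44), were among the lowest in the sublingual gland. The subunits Cox8b (-4.97 ± 0.28) and Cox7a1 (-3.27 ± 0.28) of cytochrome oxidase were among the lowest in the lacrimal gland. In the submandibular gland 29 were lower and 4 higher (6.6% and 5.69% of all probes), with Myh2 (-2.79 ± 0.41) and the muscle intermediate filament desmin, Des (-2.23 ± 0.32), among the lowest.

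Some probes of the lists did not follow the 5 genes. Chrnd, a subunit of the acetylcholine receptor of the muscle endplate, was higher in the parotid than in the meibomian gland by 6.90 ± 0.41, and in the meibomian gland it lay under the 30th percentile in every pool. Capn3, a muscle protease, was higher in the parotid by 5.91 ± 0.26 and Mef2c, a transcription factor of muscle and other cells, by 4.22 ± 0.27. In that comparison 4 of the 58 were higher in the parotid and 18 lower, against 28.2% and 30% of all probes. Mymk, a gene of myoblast fusion, had its highest level in the submandibular gland (geometric means 282 in females and 158 in males) and read under 1 in the meibomian gland (0.748 and 0.756). Sgca, a sarcoglycan of the muscle membrane, was highest in male submandibular pools (3.96 to 5.25) and read 0.278 to 0.397 in the meibomian gland.

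**Figure D4:**
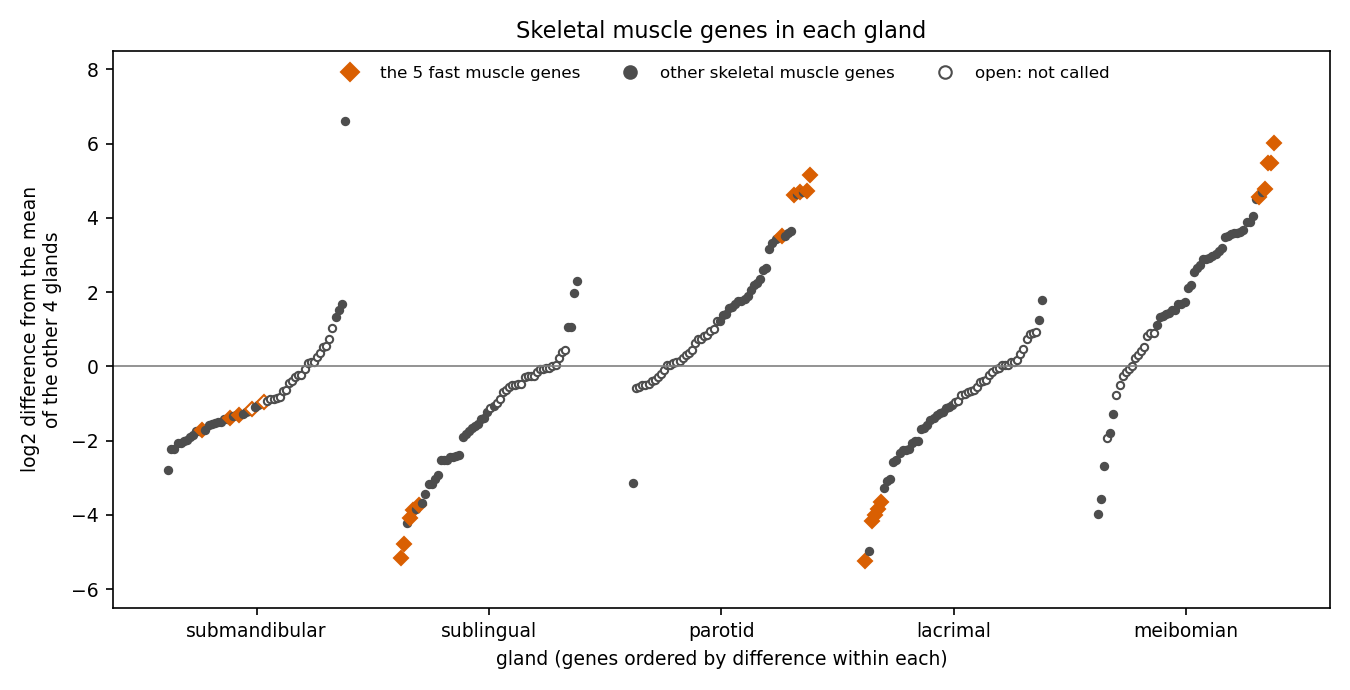
Log2 difference of each skeletal muscle gene kept (58 per gland) from the mean of the other 4 glands, ordered by size within each gland; diamonds are the 5 fast muscle genes, filled points are called and open points are not. The 5 genes lie near the top in the parotid (3.51 to 5.15) and meibomian gland (4.57 to 6.02) and near the bottom in the sublingual and lacrimal glands.

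Between the sexes in the submandibular gland 10 of the 58 list genes were higher in males and none lower, 5 of them besides the 5 genes above: Sgca (2.97 ± 0.31), Mylpf (2.69 ± 0.41), Pgam2 (2.15 ± 0.53), Ckmt2 (1.96 ± 0.50) and Myl1 (1.73 ± 0.43). Mylpf read 0.350 to 0.652 in the female and 2.48 to 3.66 in the male pools, so its groups did not overlap. The median over the 9 fast fibre genes was 1.73, and 1.09 over the 6 of them besides Acta1, Tnnc2 and Tnnt3, of which 2 were called. The 5 slow fibre genes had a median of 0.20 with none called, and all probes had a median of -0.09. Markers of smooth muscle and myoepithelial cells moved in the same direction: 4 of 7 were higher in males, named after their values were seen: Actg2 (2.25 ± 0.41), Tagln (1.75 ± 0.27), Acta2 (1.64 ± 0.40) and Cnn1 (1.61 ± 0.42). The 6 of them that could be summed came to 26.8 to 39.8 in females and 70.8 to 127 in males, and 1 lay under the 30th percentile in every female pool. The gland's own markers Klk1b24, Smr2 and Egf were higher in males as well (3 of 4 on the array). Their part in the differences of the muscle genes was not tested. No other list of other cell types had more than 1 member called in that comparison, and neither adipocyte (0 of 6) nor heart muscle markers (0 of 4) had any.

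Other cell types differed between the glands too. In the parotid gland all 6 adipocyte markers were higher than in the other glands and 5 of them summed to 130 to 388, against 18.7 to 35.7 in the meibomian gland. In the meibomian gland all 6 fibroblast markers were higher. The 3 nerve and Schwann cell markers kept summed to 71.0 to 96.3 in meibomian pools, 24.1 to 37.3 in parotid pools and at most 25.4 elsewhere, an order of glands like that of the 5 genes. They did not move as 1 list: in the meibomian gland Mal (4.78 ± 0.22) and Pmp22 (1.28 ± 0.19) were higher and Sox10 lower (-3.53 ± 0.11), and in the parotid gland only Sox10 was called higher (2.54 ± 0.13). No endothelial marker (0 of 5) was called in either gland. Of the 5 summed adipocyte markers, 2 lay under the 30th percentile in all meibomian pools. Of the 4 heart muscle markers kept, 2 were higher and 1 lower in the parotid, and Actc1, cardiac actin, read 43.1 to 75.9 there and 1.72 to 2.33 in the meibomian gland. Their part in the gland differences of the 5 genes was not tested.

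The probes most like the mean of the 5 genes over the 26 arrays were Mylpf (Pearson r = 0.986), Myl1 (0.975), Ckm (0.968), Ckmt2 (0.954) and Pgam2 (0.950), followed by Rtn2 (0.948), Mstn (0.939), Fhl1 (0.931), Tmod4 (0.929) and the fast troponin I gene Tnni2 (0.929). Of these 10, 7 were on the muscle lists. The arrays share glands, array sets and scaling, so these values describe the gland pattern more than single pools. Each of the 5 genes had r of 0.972 to 0.992 with the mean of the other 4. Without the group means, r was 0.940 for Tnnc2 (25 arrays), 0.838 for Pvalb, 0.636 for Acta1, 0.599 for Tnnt3 and 0.521 for Atp2a1. Pools of 1 group thus also tended to be high or low for the genes together, least so for Atp2a1. The array sets were not taken out of this measure. Dim groups also weigh in it, as the log2 standard deviation of Tnnc2 was 2.58 in female sublingual and 0.18 over meibomian pools. On that measure the probes most like the 5 genes were Kdm1a (0.816) and Elovl4 (0.804), of which Elovl4 is a marker of the meibomian gland. Of the first 10, 2 were on the muscle lists, Mstn and Ckmt2.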

How the data were processed

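RNA of 26 pools was hybridised to arrays of 10500 probes. The authors deposited linear intensity values, which include negative values (lowest -0.699) and have like medians on all arrays. Platform, labelling and scaling method are not given in the sources used here. Of 273000 cells, 2241 (0.821%) hold -1, read here as missing and left out. GEO's platform annotation names a single symbol for 8983 probes, more than 1 symbol for 1 probe and no symbol for 1516. RefSeq held 8975 of the single-symbol probes.

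Lower values were set to 0.0234, the 1st percentile of all positive ones, before log2 was taken. A probe was kept where it reached the 30th percentile on every array of at least 1 group. This left 8227 probes, which were tested with limma's moderated statistics (R 4.3.3, limma 3.58.1) over 10 group means, Benjamini-Hochberg at 0.05, gland differences also at 1 log2 unit. The fit had 16 residual degrees of freedom. No array or column was left out. On simulated data for the submandibular sex comparison 84% of changes of 2 and 100% of changes of 4 log2 units were recovered (100 probes each), with 8 false calls among 8227 probes. The simulated errors were independent between arrays, without array sets or likeness of same-letter pools, so these rates may not hold for the real arrays.

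The genes and lists were chosen with earlier results of these data known. Named were the 5 genes, per comparison up to 12 list genes called with the largest differences, the highest gene of each cell type list and the 10 probes most like the 5 genes. Pool letters pair the sexes within a gland. In the 3 glands with 3 pools per sex, each of the 9 male pools was compared with the female pools of its gland. All 9 correlated most with the female pool of the same letter (0.441 to 0.816 over 7555 probes, deviations from group means). The blocked values come from the letter. Alternatives were log2(value + 0.1), quantile normalization, array weights, no filter, missing cells at the floor, the gland's arrays alone, array sets, the replicate block and each array left out. Exact permutation tests, motif searches and plots used Python 3.11.15 with pandas 2.3.3, scipy 1.17.1 and matplotlib 3.10.9.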

Additional observations from a re-analysis of the deposited data

Results flagged for a closer look

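The male minus female difference of Pvalb was larger in the submandibular than in the lacrimal gland by 4.58 ± 1.07 on the log2 scale (limma test of the difference itself, adjusted p = 0.0158). In the submandibular gland Pvalb read 2.63 to 4.09 in males and 0.0471 to 0.33 in females. All of these female values lay under the 30th percentile of their arrays. In the lacrimal gland Pvalb lay under that percentile in all 6 pools, where the difference was -0.19 ± 0.75. The size of 4.58 thus rests in part on readings not told from background. With array weights the value was 4.19 and the adjusted p 0.0661, and under every other alternative that was run the adjusted p stayed under 0.05.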

How the results depend on the processing

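Male against female in the submandibular gland, 5 genes were called, 2 on array set 2 alone and 2 to 5 with 1 array left out. In the sublingual, parotid, lacrimal and meibomian glands the count was 0 under every alternative. Over the mean of the 5 glands the count of 0 became 1 with the replicate block (pool letter within gland), and ranged from 0 to 2 with 1 array left out. The block changed no other count of members by more than 1.5 times, but moved the count of all probes called in the submandibular gland from 157 higher and 55 lower to 592 in both directions. For a sex difference that differed between glands the count of 0 became 2 with log2(value + 0.1), 2 with array weights, 1 with quantile normalization, 1 with array set as a term, 1 on array set 2 alone, and 0 to 2 with 1 array left out. In the submandibular gland against the other glands the count of 3 became 5 with log2(value + 0.1), and 2 to 5 with 1 array left out. The parotid minus meibomian difference of Atp2a1 reversed from -0.06 to 1.14 on array set 2 alone. The sublingual, lacrimal and meibomian counts of 5 against the other glands held in each alternative, and 4 remained where a missing parotid spot left Tnnc2 without an estimate. The cause of these changes was not tested. Array set 1 alone has 1 array per group and gave no test. With 2 or 3 pools per group the number of arrays limits the precision, and the male and female sublingual and parotid pools are the fewest.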
